A study of Mus musculus with 12 samples.

Results

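The expressed long intergenic noncoding RNAs (lincRNAs) of mouse soleus muscle were taken as the genes with the biotype lincRNA and a total of at least 1000 normalised reads over 12 libraries. There were 63 such genes, out of 1744 lincRNAs and 28997 genes in all. They were chosen by these totals, which pool all groups, and the rule uses no value of the 4 comparisons, though it was set with earlier results of these data known. The lowest members were A830052D11Rik with a total of 1036 and Gm32219 with 1017, and just under the threshold lay A530013C23Rik with 995 and Gm49083 with 992.

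RNA from the soleus, a postural calf muscle with many slow fibres, was sequenced from 12 mice in 4 groups of 3. Per the labels the groups were Cdh5cre-NOX1CKO mice on a high fat diet, Cdh5cre-WT mice on a high fat diet, Cdh5cre-NOX1CKO mice on chow and Cdh5cre-WT mice on chow. The diets lasted 8 weeks per the design text, and the labels give no age. All 4 groups carry Cre driven by Cdh5, a gene of endothelial cells, so the labels describe a loss of Nox1 in endothelium and not in the muscle fibres that make up most of the tissue. The authors deposited comparisons between groups coded G1 to G4 and the labels do not say which code stands for which of these groups. The groups are therefore named by code, and whether a difference goes with diet or genotype cannot be told apart. A called gene is one with an adjusted p under 0.05. Nox1 had a total of 25.2, too low to check the knockout, and Cdh5 was called in none of the 4 comparisons. The slow fibre myosin Myh7 had a total of 3000450 and the fast fibre myosin Myh2 a higher one, 4475800. The endothelial marker Pecam1 had 32364. The adipocyte hormone Adipoq had 1576, while Fabp4, also in the list of adipocyte markers, had 53552.

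LincRNAs are long transcripts from between protein-coding genes that lack a long open reading frame. They are spliced and polyadenylated in many cases, and they act, where an action is known, as scaffolds of nuclear bodies, as hosts of small RNAs, as partners of microRNAs or through the act of their own transcription. In muscle several are tied to fibre type or to development. H19, an imprinted RNA expressed from the maternal chromosome, is silenced after birth in many mouse tissues and persists in skeletal muscle.

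Sequences of 3 kinds are shown for members whose values are described below: microRNAs they host, microRNA sites and promoters. H19 and Gm28653 overlap the hairpins of microRNAs on the same strand (GENCODE M21, build GRCm38). H19 lies on chr7:142575529-142578143 and holds miR-675 in an exon. Gm28653 lies on chr1:20669882-20684298, and its exons overlap the hairpins of miR-206 and miR-133b, both microRNAs of skeletal muscle. The mature RefSeq sequences (GRCm38.p6) are printed with the seed, bases 2 to 8, in capitals, and no seed is shared between them.
miR-206-3p: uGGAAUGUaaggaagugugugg
miR-133b-3p: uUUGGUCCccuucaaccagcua
miR-675-5p: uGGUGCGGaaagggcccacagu
miR-675-3p: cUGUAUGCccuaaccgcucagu
miR-7a-5p: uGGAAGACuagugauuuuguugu

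The last of these, miR-7a-5p, is printed for Oip5os1, also known as Cyrano, which is known in mouse to bind miR-7 and to direct its destruction. The 8300 base transcript of Oip5os1 in GENCODE M21 held 2 matches to the miR-7 seed, at transcript positions 762 and 2952, shown with the match in capitals. The stretch before the second match has a run of 13 letters that pair with the rest of miR-7a-5p, and that before the first has a run of at most 3.
Oip5os1 position 762: cttcaggttttttttttaatGTCTTCCaa
Oip5os1 position 2952: agaacaacaaaatcaccaatGTCTTCCat

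Promoter windows, 250 bases before to 50 after the RefSeq start (GRCm38.p6), are shown for Gm5532, 2310065F04Rik and Gm4544, which are called in at least 1 comparison below and have a window in the RefSeq table. Their windows are chr1:155527062-155527361 on the minus strand for Gm5532, chr11:67120031-67120330 on the minus strand for 2310065F04Rik and chr15:102657222-102657521 on the plus strand for Gm4544. Capitals mark the binding consensus of MEF2, a transcription factor of muscle, in Gm5532 and Gm4544, and 2 overlapping TATAAA matches, on opposite strands, in 2310065F04Rik.
Gm5532: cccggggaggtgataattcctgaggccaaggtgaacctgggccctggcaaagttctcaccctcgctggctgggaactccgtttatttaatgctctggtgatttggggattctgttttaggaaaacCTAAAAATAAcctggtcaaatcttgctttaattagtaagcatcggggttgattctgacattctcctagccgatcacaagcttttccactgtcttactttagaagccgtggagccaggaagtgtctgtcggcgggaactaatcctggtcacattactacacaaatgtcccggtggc
2310065F04Rik: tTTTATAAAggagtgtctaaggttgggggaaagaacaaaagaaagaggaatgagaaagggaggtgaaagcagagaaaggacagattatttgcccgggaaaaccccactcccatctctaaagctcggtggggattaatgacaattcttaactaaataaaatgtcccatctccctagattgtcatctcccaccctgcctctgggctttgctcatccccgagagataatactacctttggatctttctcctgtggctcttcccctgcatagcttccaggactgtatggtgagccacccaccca
Gm4544: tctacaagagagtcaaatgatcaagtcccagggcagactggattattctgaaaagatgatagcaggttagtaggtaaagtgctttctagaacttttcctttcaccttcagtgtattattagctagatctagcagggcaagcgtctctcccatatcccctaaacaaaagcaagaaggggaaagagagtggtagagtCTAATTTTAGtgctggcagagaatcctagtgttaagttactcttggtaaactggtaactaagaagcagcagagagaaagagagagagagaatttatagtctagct

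Both strands were searched. The MEF2 consensus stood in 3.19% of the 32851 promoters of the table and TATAAA in 13.6%. Among the 61 promoters of members the MEF2 consensus stood in 8, or 13.1%, and TATAAA in 6, or 9.84%. These 61 belong to 39 members, so a gene with several starts counts more than once. Malat1, which was not called, also held 1 match to the MEF2 consensus. The MEF2 consensus was added to the search after the printed promoters had been read. Gm5532 and Gm4544 each also hold 1 match to the E-box CANNTG, a motif found in 72.3% of all promoters, and Gm4544 holds 1 TATAAA match on the other strand. The GC box GGGCGG and the nuclear receptor motif AGGTCA had no match in the 3 windows, and the same holds for the box CCAAT. Over the 61 promoters of members AGGTCA stood in 39.3%, beside 16.3% of all promoters, and CCAAT in 52.5%, beside 37.4%. The E-box stood in 82.0% of the 61, and the GC box in 24.6%, beside 35.7% of all promoters. These matches are descriptions of the letters only.

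The members held 0.376% of all normalised reads and 93.6% of all reads of lincRNAs, and most of that came from 5 RNAs. H19, Oip5os1, Neat1, 2900097C17Rik and Malat1 had totals of 463859, 220533, 149149, 95868 and 66652 normalised reads, and together they held 88.6% of the members' reads. Every other member had a total under 10000, and 35 of 63 had one under 2000. The median total was 1711.

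Levels were compared between genes per kb of exon, for the 58 members with an exon length. H19 stood first with 15713 normalised reads per kb per library, above 99.6% of the 12793 protein-coding genes measured. Oip5os1 followed with 2213 and 2900097C17Rik with 1625. The short unstudied transcripts Gm44386 and 2310040G24Rik had 1070 and 1011, more per kb than Malat1 with 795, the abundant RNA of nuclear speckles, and Neat1 with 598. Neat1 is the RNA scaffold of paraspeckles, and its level is spread over an exon length of 20.8 kb, so a short isoform would be understated. The median member had 72.5 reads per kb per library, close to the 63.3 of the median protein-coding gene, and 32 of 58 members lay above the coding median. Meg3, an imprinted RNA of the Dlk1-Dio3 region, had the lowest level per kb, 6.09, over 18.1 kb of exon.

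**Figure D1:**
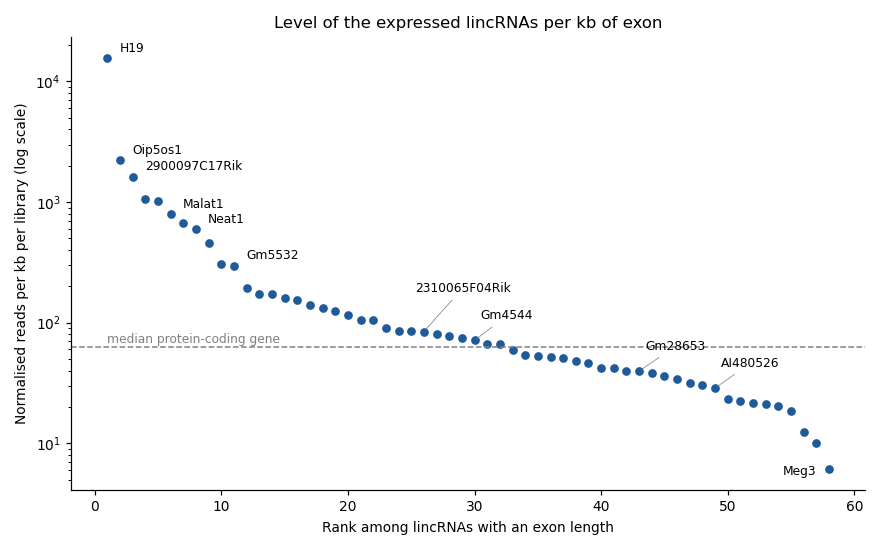
Normalised reads per kb of exon per library (log axis) for the 58 lincRNAs with an exon length, ranked from the highest, with 1 point per lincRNA and a dashed line at the median protein-coding gene. H19 at 15713 stands above all others, and 32 of 58 points lie above the line at 63.3.

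Some of these levels may hold reads of other genes. Gm10076, at 667 reads per kb per library, matched the ribosomal protein gene Rpl41 at 99.5% over 383 bases, nearly its whole length, and its value is uncertain. Erdr1 and Gm47283, both pseudoautosomal, shared 529 identical bases, and 1300002E11Rik overlaps exons of Map3k13 on the same strand. Meg3 matched Gm27000 at 99.9% over 842 bases, and 2900097C17Rik matched Gm7292 at 99.2% over 2537 bases, but Gm7292 itself had a total of only 28.6.

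The tables held no value per library, so the mean of each group of 3 mice and the standard deviation (SD) between mice were solved from each gene's total, its log2 fold changes and their p-values. The solution assumes 1 coefficient of variation per gene in all 4 groups for the spread beyond counting noise, and the SDs hold both that spread and the counting noise. Neither the SDs nor the coefficients of variation were measured over libraries. Whether SD intervals overlap thus adds nothing to the deposited p-values. H19 had an implied mean of 42262 ± 6325 normalised reads per library in G4, 38205 ± 5718 in G3, 37438 ± 5603 in G2 and 36715 ± 5495 in G1 (SD, n = 3 each). Oip5os1 had 18704 ± 1337 in G4, 19280 ± 1378 in G3, 17412 ± 1245 in G2 and 18116 ± 1295 in G1. The SD intervals of the 4 groups overlapped for H19 and for Oip5os1.

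The implied spread between mice was wider for the members than for protein-coding genes, and the gap was smaller among genes of like totals. With counting noise left out, the median coefficient of variation was 15.5% over the 63 members and 10.1% over the 9776 protein-coding genes with a total of at least 1000. Among genes with totals of 1000 to 2000 the medians were 16.4% for members and 14.4% for 1629 protein-coding genes. The steadiest were 2900097C17Rik with 5.70%, Oip5os1 with 7.11%, Gm20300 with 7.46% and Gm44386 with 9.40%. These 4 were the members under 10% by this measure.

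At the other end 4 members had a coefficient of variation of more than 30%, again with counting noise left out. They were Gm28653 with 58.5%, 2310065F04Rik with 41.2%, 2610035D17Rik with 35.3% and Erdr1 with 33.7%. Gm28653 is the host of the miR-206 and miR-133b hairpins, and 2310065F04Rik, also named linc-Myh, lies in the cluster of skeletal myosin heavy chain genes on chromosome 11, where its nearest coding start is that of the embryonic myosin Myh3. In mouse it has been described as an RNA of fast fibres. H19, Neat1 and Malat1 varied by 14.96%, 16.1% and 17.7%, and the points of Neat1 and Malat1 lie above the upper quartile of protein-coding genes in the plot of spread against total.

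**Figure D2:**
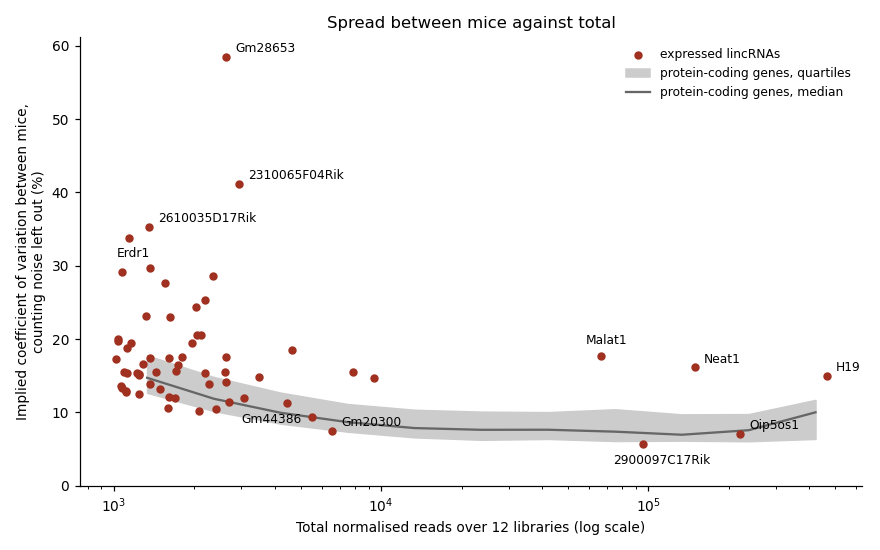
Implied coefficient of variation between mice with counting noise left out (percent) against the total of normalised reads over 12 libraries (log axis), with 1 point per lincRNA and a line and band for the median and quartiles of protein-coding genes. Gm28653 at 58.5% and 2310065F04Rik at 41.2% stand apart from the rest, while 2900097C17Rik at 5.70% lies under the median line.

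G3 against G1 gave 1 called member, Gm50194, an unplaced gene model of no known role. It had an implied mean of 170 ± 23.5 normalised reads per library in G3, against 274 ± 35.5 in G1 (SD, n = 3 each). The intervals of 1 SD did not overlap, which restates the deposited p-value. In the authors' deposited table it was lower in G3, with a log2 fold change of -0.69 and an adjusted p of 0.00950, which is 1.61-fold lower, and the implied standard error was 0.16. Over all genes 0.0414% were called lower and 0.210% in all in that comparison. Before adjustment 9 members, or 14.3%, had a p under 0.05, 7 of them lower in G3. The share was 5.63% of all genes with a total of at least 100 and 6.38% of those with at least 1000.

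The largest difference of G3 against G1 was that of 2310065F04Rik, and whether it passed the threshold depended on the genes adjusted over. Its implied mean was 120 ± 50.4 in G3, against 438 ± 182 in G1. The authors' deposited table gave a log2 fold change of -1.88 with an adjusted p of 0.0648. It passed the threshold, with an adjusted p of 0.0346, when the authors' deposited p-values were adjusted over genes with a total of at least 100, and with 0.0452 after removal of trends on GC content, length and total. The error was wide, with a 95% interval of the log2 fold change between -2.84 and -0.91. Gm4544, with 67.0 ± 15.4 in G3 and 118 ± 25.5 in G1, had a log2 fold change of -0.81 and an adjusted p-value of 0.405 in the authors' deposited table. Neat1 had 9448 ± 1527 in G3 and 13207 ± 2133 in G1, with a log2 fold change of -0.48 and an unadjusted p of 0.0111 in the authors' deposited table. On the positive side Gm49794, whose exons overlap the hairpins of miR-7217 and miR-7218, had the largest log2 fold change in the authors' deposited table, 0.57, with an implied standard error of 0.34.

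The fast fibre genes, to which 2310065F04Rik has been tied in mouse, are given beside it. Of 7 fast fibre markers 1 was positive in G3 against G1, none was called, and their median log2 fold change was -0.33. Myh4, the myosin of the fastest fibres, had -1.69 with a standard error of 1.77, and Myh1 had -0.57 with a standard error of 0.40. These were the 2 most negative of the 7. Myh2, which had the highest total of the 7, was the positive one, at 0.0012 with a standard error of 0.20. Among the 7 slow fibre markers 3 were positive, with a median of -0.04. The part of fibre makeup in the values of 2310065F04Rik was not tested, and in bulk tissue fewer cells of a type cannot be told apart from less RNA per cell.

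G4 against G2 gave 2 called members, Gm5532 as higher and AI480526 as lower. Gm5532 lies on chr1:155520173-155527143 on the minus strand in 3 exon blocks and has no known role. Its implied mean was 826 ± 131 normalised reads per library in G4, against 487 ± 78.7 in G2 (SD, n = 3 each). It was 1.69-fold higher in G4, with a log2 fold change of 0.76 and an adjusted p-value of 0.00959 in the authors' deposited table and an implied standard error of 0.19. Its promoter is the one printed above with a MEF2 consensus match. Over all genes 1.02% were called higher in G4, 0.351% lower and 1.38% in all.

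AI480526 lies on chr5:123133723-123141666 on the minus strand, and its start is 527 bp from that of Setd1b, a histone methyltransferase gene on the other strand. Its implied mean was 97.2 ± 24.4 in G4, against 197 ± 47.5 in G2. It was 2.03-fold lower in G4, with a log2 fold change of -1.02 and an adjusted p-value of 0.0365 in the authors' deposited table and an implied standard error of 0.29. With adjustment over every gene that has a p-value its adjusted p was 0.0719, which is above the threshold. Its exons overlap those of Gm38102 and 4932422M17Rik on the opposite strand, which had totals of only 11.6 and 63.9. Setd1b had a log2 fold change of -0.15 and an adjusted p-value of 0.936 in the authors' deposited table.

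Other members differed between G4 and G2 without passing the threshold. Gm50321, a model without a position in the annotations used here, had 323 ± 51.0 in G4 and 209 ± 34.1 in G2, and an adjusted p-value of 0.0603 in the authors' deposited table. Gm28653, the host of miR-206, had 155 ± 91.5 in G4 and 426 ± 250 in G2, and the most negative log2 fold change of all members in the authors' deposited table, -1.46, with an adjusted p of 0.471. The SDs of its 2 groups overlap. 5430431A17Rik had 88.3 ± 27.8 in G4 and 176 ± 53.7 in G2, with a log2 fold change of -0.99 and an adjusted p-value of 0.203 in the authors' deposited table. Before adjustment 8 members, or 12.7%, had a p under 0.05, 5 of them lower in G4. The share was 9.06% of all genes with a total of at least 100 and 10.7% of those with at least 1000.

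**Figure D3:**
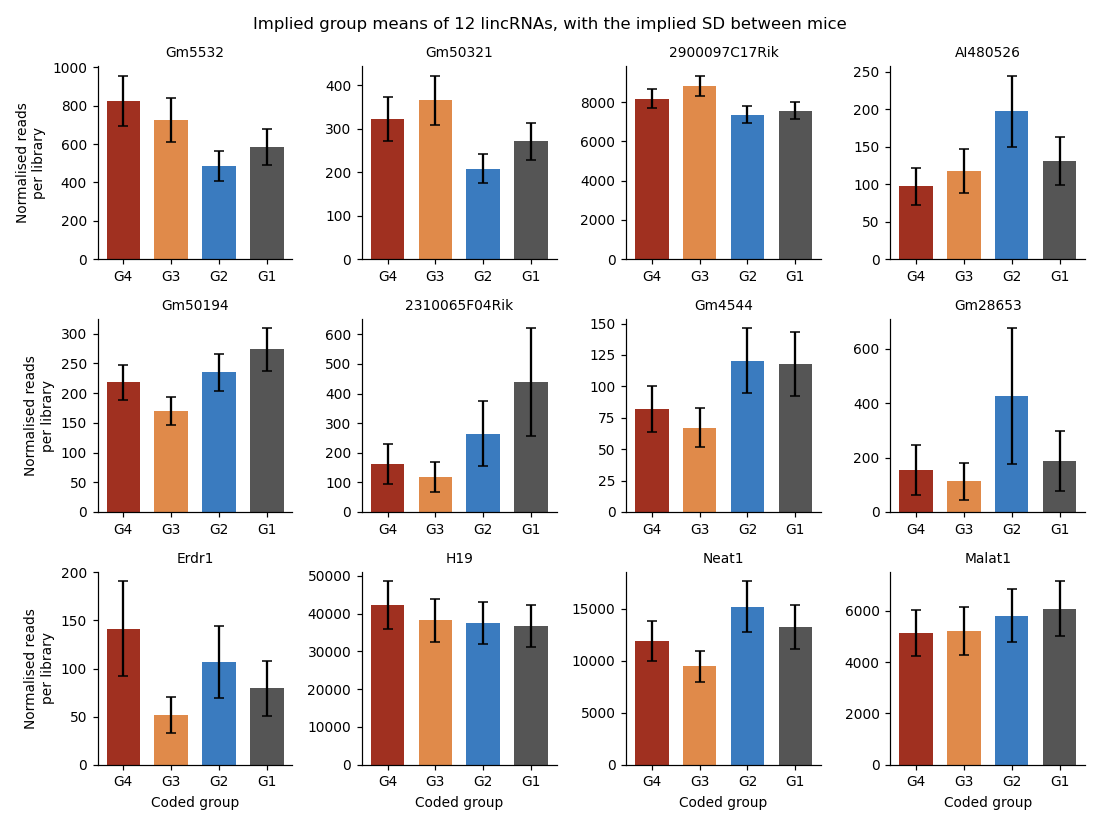
Implied mean normalised reads per library in the coded groups G4, G3, G2 and G1 for 12 lincRNAs (bars from 0), with the implied SD between 3 mice as error bars. Gm5532 was highest in G4 at 826, AI480526 was highest in G2 at 197, and 2310065F04Rik was highest in G1 at 438 with wide error bars.

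G2 against G1 gave no called member, in a comparison where 0.00645% of all genes were called. The authors' deposited table for it lists only genes at or below 0 on the log2 scale, so 41 of the 63 members were rebuilt from the other 3 tables and 22 were read as listed. By the deposited and rebuilt p-values 3 members, or 4.76%, had an unadjusted p under 0.05. The share was 2.35% of all genes with a total of at least 100 and 2.26% of those with at least 1000. Meg3 had 152 ± 37.4 normalised reads per library in G2 and 97.8 ± 24.8 in G1, a rebuilt log2 fold change of 0.64 with a standard error of 0.29. AI480526 had 197 ± 47.5 in G2 and 131 ± 32.2 in G1, a rebuilt log2 fold change of 0.59 with a standard error of 0.29. Gm50321 was the third, with a log2 fold change of -0.38 in the authors' deposited table.

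The largest rebuilt difference of G2 against G1 was 1.18 on the log2 scale for Gm28653, with 426 ± 250 in G2 and 187 ± 110 in G1 and a 95% interval between -0.17 and 2.54. The next was 5430431A17Rik with a rebuilt log2 fold change of 0.70. The most negative in the authors' deposited table was -0.73 for 2310065F04Rik, with 264 ± 110 in G2 and 438 ± 182 in G1, and 2610035D17Rik followed with -0.39. None of these 4 intervals excluded 0.

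G4 against G3 gave no called member either, where 0.0394% of all genes were called and 4.83% of those with a total of at least 100 had an unadjusted p under 0.05. Among the members 4, or 6.35%, had such a p, against 5.81% of genes with a total of at least 1000. Erdr1, a pseudoautosomal transcript whose sequence is shared with Gm47283, had 142 ± 49.2 in G4 and 51.4 ± 18.8 in G3. Its log2 fold change was 1.46, the largest positive one among the members in this comparison, with an adjusted p-value of 0.335 in the authors' deposited table. Gm47283, which shares 529 bases with it, had a log2 fold change of 0.28 in the authors' deposited table. Gm32219 had a log2 fold change of 0.53 and 2310001H17Rik one of 0.51, and on the negative side Gm49794 had -0.55, 5430401H09Rik -0.45 and Gm5165 -0.41, all with an adjusted p-value of 0.9997 in the authors' deposited table.

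The interaction, G4 against G2 minus G3 against G1, tests whether the 2 comparisons differ, and no member was called for it (0.00645% of all genes tested were). Before adjustment 3 members, or 4.76%, had a p under 0.05. The share was 4.12% of all genes with a total of at least 100 and 4.67% of those with at least 1000. AI480526 had an interaction of -0.86 on the log2 scale with a standard error of 0.41, 5430401H09Rik had -0.67 with 0.33, and Gm50194 had 0.58 with 0.22. So Gm50194, called in G3 against G1 only, and AI480526, called in G4 against G2 only, were not shown to differ between the 2 comparisons after adjustment.

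**Figure D4:**
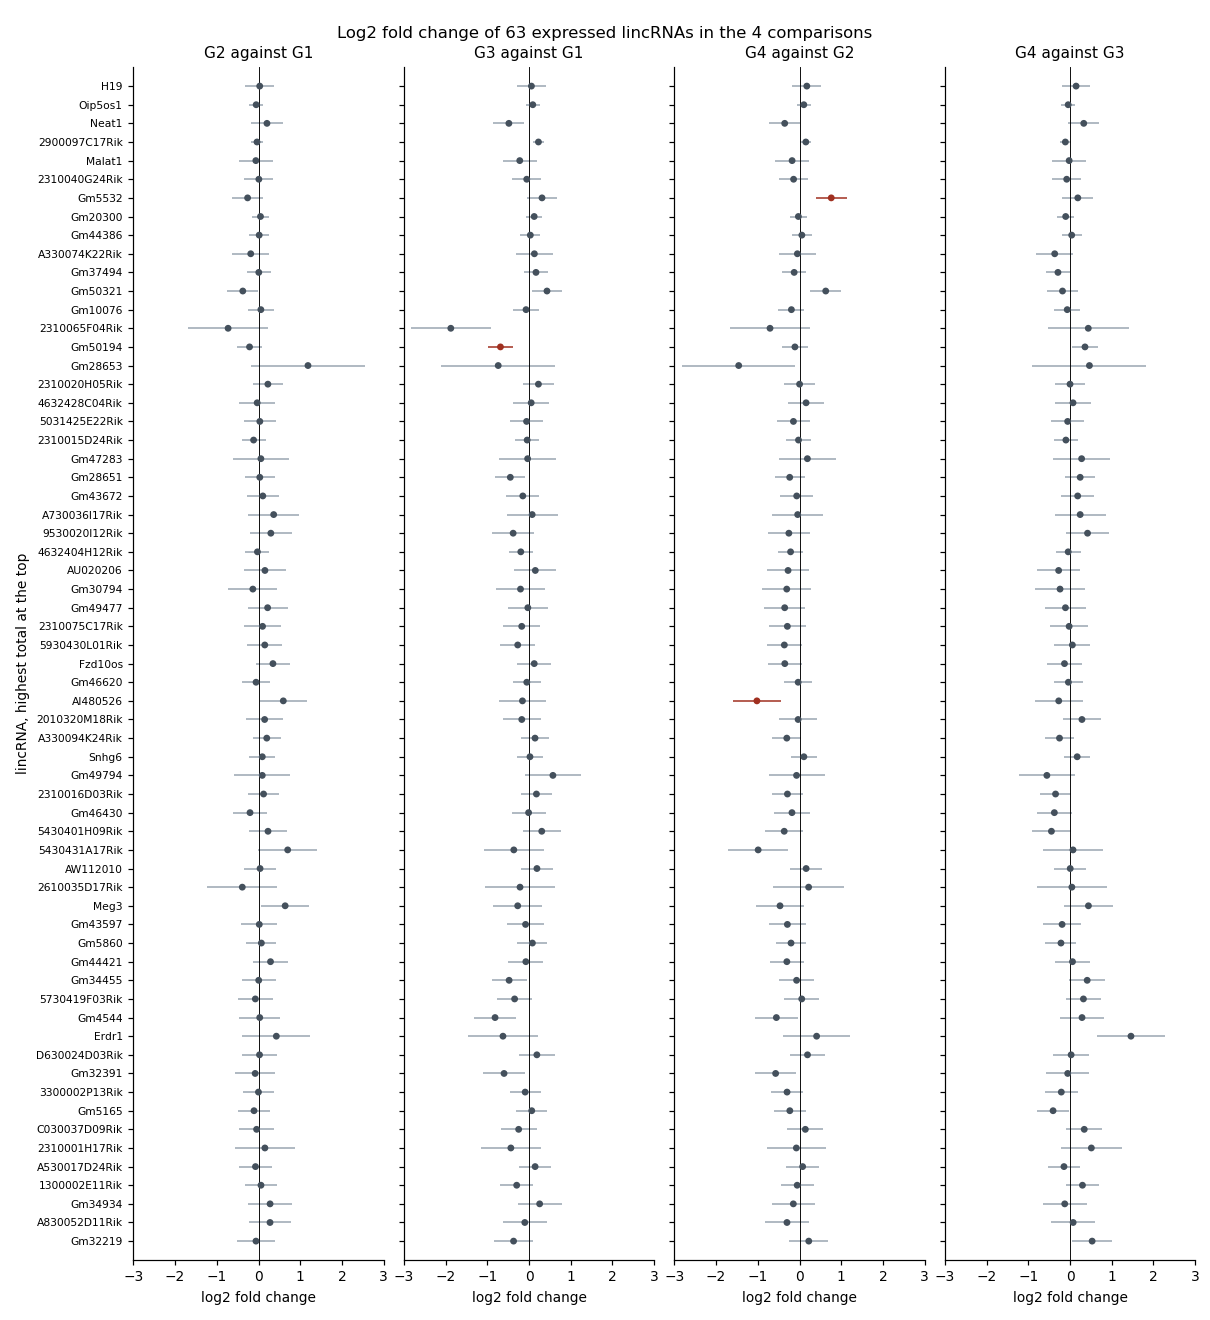
Log2 fold change (points) with its 95% interval (lines) for the 63 lincRNAs in 4 comparisons, 1 panel each, from the highest total at the top to the lowest. Called members are red, and they are Gm50194 in G3 against G1 and Gm5532 and AI480526 in G4 against G2.

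G4 against G2 and G3 against G1 have no library in common, and their mean sets G3 and G4 together against G1 and G2. This comparison was added after the data were seen. It called 6 members, 3 higher and 3 lower, where 1.21% of all genes tested were called higher, 0.439% lower and 1.65% in all. Gm5532 was 1.45-fold higher with an adjusted p of 0.00706 by a Wald test over all genes, Gm50321 1.44-fold higher with 0.00794 and 2900097C17Rik 1.14-fold higher with 0.0106. 2900097C17Rik had implied means of 8183 ± 475 in G4, 8841 ± 513 in G3, 7369 ± 429 in G2 and 7562 ± 440 in G1, a small change in the RNA with the smallest spread of all members.

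The 3 that were lower in this comparison were Gm4544, 2310065F04Rik and Gm50194. Gm4544 was 1.61-fold lower with an adjusted p of 0.0177 in the Wald test over all genes. 2310065F04Rik was 2.45-fold lower with 0.0180, from implied means of 162 ± 67.9 in G4, 120 ± 50.4 in G3, 264 ± 110 in G2 and 438 ± 182 in G1. Its SDs of G3 and G1 did not overlap, while those of G4 and G2 did. Gm50194 was 1.32-fold lower with 0.0257. Most of this came from G3 against G1, with a deposited log2 fold change of -0.69, while G4 against G2 had -0.11. All 7 fast fibre markers had a negative log2 fold change here, the median being -0.22, and no marker among them was called. The slow fibre list leaned the same way. Only 2 of its 7 markers were positive, its median was -0.14, and it held no call. The opposite averaging, G2 and G4 against G1 and G3, called no member, where 0.0452% of all genes tested were called and 0.0387% were called lower.

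The large nuclear RNAs gave no call. Neat1 had implied means of 11874 ± 1918 in G4, 9448 ± 1527 in G3, 15188 ± 2453 in G2 and 13207 ± 2133 in G1. Both means of G3 and G4 were the lower ones, and the averaged log2 fold change was -0.42 ± 0.13 (standard error), with 0.0841 as its adjusted p in a Wald test over all genes. Malat1 had 5133 ± 909 in G4, 5205 ± 922 in G3, 5806 ± 1028 in G2 and 6074 ± 1076 in G1, and its averaged log2 fold change of -0.20 had a standard error of 0.15. Of 15 genes for proteins of paraspeckles and speckles measured, 1 was called in G4 against G2, Sfpq, which binds Neat1 in paraspeckles, with a log2 fold change of 0.53 and an adjusted p-value of 0.00375 in the authors' deposited table. The median of the 15 was -0.05 in that comparison.

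The imprinted and host RNAs gave no call in any comparison. H19 lay between 0.03 and 0.17 on the log2 scale in all 4 comparisons, each with a standard error of about 0.18. Igf2, the imprinted growth factor gene beside H19, had log2 fold changes between -0.08 and 0.15 in the 4 comparisons. Of 11 imprinted coding genes measured none was called. Snhg6, the host of the small nucleolar RNA Snord87, had implied means of 144 ± 19.4 in G4, 128 ± 17.6 in G3, 134 ± 18.3 in G2 and 126 ± 17.4 in G1, with overlapping SD intervals. Of 16 small nucleolar RNA hosts measured, Snhg6 among them, none was called. Of 33 measured genes in a list of well studied noncoding RNAs, which holds 6 of the members, none was called.

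AW112010, which encodes a peptide in mouse immune cells, is set beside the macrophage markers. It had 121 ± 20.1 in G4, 120 ± 20.02 in G3, 108 ± 18.3 in G2 and 105 ± 17.9 in G1, with overlapping SD intervals. The 9 macrophage markers were all negative in G2 against G1, with a median of -0.42, where AW112010 had a rebuilt 0.04. None of the 9 was called in any of the 4 comparisons. The endothelial, adipocyte, erythroid and Schwann cell markers were also all negative in G2 against G1. Their medians were -0.14, -0.77, -0.70 and -0.29. The 7 slow fibre markers were all positive there, with a median of 0.32, and 1 of the 7 fast fibre markers was positive.

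Most members gave no call. Of the 63, 46 had an unadjusted p of 0.05 or more in all 4 comparisons, and 52 stayed under a 1.5-fold difference in each of them. Gm44386 and 2310040G24Rik, the short abundant transcripts, lie near each other on chromosome 6, at chr6:86513891-86516273 and chr6:86483376-86488227, and share Pcbp1, a gene of an RNA-binding protein, as their nearest coding gene. Gm44386 had implied means of 472 ± 49.4 in G4, 459 ± 48.2 in G3, 454 ± 47.7 in G2 and 449.6 ± 47.3 in G1, and no log2 fold change beyond 0.06. 2310040G24Rik had 736 ± 112 in G4, 778 ± 118 in G3, 812 ± 123 in G2 and 808 ± 122 in G1. Both stayed within 1 SD across the groups.

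Gm20300, Gm37494 and A330074K22Rik complete the 12 highest totals. Gm20300 had 535 ± 46.1 in G4, 575 ± 49.1 in G3, 545 ± 46.9 in G2 and 528 ± 45.6 in G1, with overlapping SD intervals. Gm37494, with 338 ± 42.5 in G4 and 413 ± 51.1 in G3, had an unadjusted p-value of 0.0501 for G4 against G3 in the authors' deposited table. A330074K22Rik starts 226 bp from Gse1 on the other strand, and it had 342 ± 66.0 in G4, 441 ± 84.4 in G3, 355 ± 68.3 in G2 and 404 ± 77.4 in G1. None of the 3 was called.

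As a group the members leaned lower in G4 against G2 and slightly lower in G3 against G1. In G4 against G2 the log2 fold change was negative for 45 of 63 members, with a median of -0.14, beside a median of 0.00 over all 15494 genes with a total of at least 100. In G3 against G1 it was negative for 38 of 63, with a median of -0.06, beside 0.00. The medians were 0.03 in G2 against G1 and 0.00 in G4 against G3. Of the 63 members 32 were negative and 12 positive in both G4 against G2 and G3 against G1, a count that was not made over all genes.

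Lower lincRNAs and other noncoding biotypes are given beside this. The 191 lincRNAs with totals between 100 and 1000 had a median of -0.13 in G4 against G2, near that of the members. The 47 antisense genes with totals of at least 1000 had -0.03 and the 29 processed transcripts -0.05, while the 9776 protein-coding genes had 0.00. The PPAR target genes, which drive fat oxidation, were all positive in the same comparison, 16 of 16 with 14 called and a median of 0.81. The endothelial markers were positive for 10 of 10, with 1 called and a median of 0.21. The 7 slow fibre markers were all negative, with a median of -0.20, and so were the 7 fast fibre markers, with -0.13, and none of these 14 was called. The part of any of these lists in the lean of the lincRNAs was not tested.

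**Figure D5:**
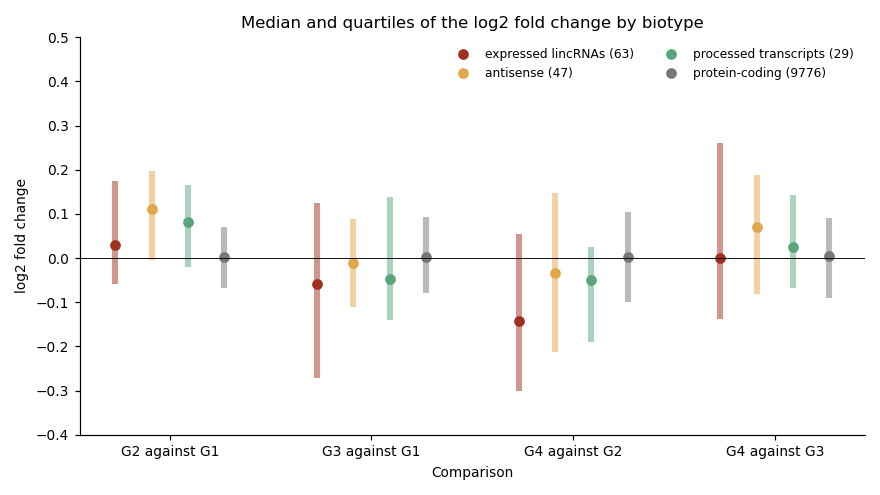
Median log2 fold change (points) with the quartiles (bars) in the 4 comparisons for the 63 expressed lincRNAs and for antisense, processed transcript and protein-coding genes with a total of at least 1000. The lincRNA median of -0.14 in G4 against G2 is the lowest of the 16 points, and the protein-coding medians lie at 0.00.

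Many members start close to a protein-coding gene. Of the 58 with a place in GENCODE M21, 13 started within 1000 bp of a coding start, 11 of them on the opposite strand, and the median distance was 24648 bp. Among these 13 pairs are 5031425E22Rik with the chromatin gene Kmt2e at 172 bp, C030037D09Rik with Msi2 at 132 bp and Fzd10os with the Wnt receptor gene Fzd10 at 151 bp. The log2 fold changes of lincRNA and coding gene had the same sign in 8 of the 13 in G4 against G2, in 5 for G3 against G1, in 8 for G2 against G1 and in 7 for G4 against G3. None of the 13 coding genes was called.

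Among the nearest coding genes of the 58 placed members 2 were called, both in G4 against G2. In that comparison 1.38% of the genes with an adjusted p were called. Acbd6, which encodes an acyl-CoA binding protein and starts 30977 bp from Gm5532 on the other strand, was higher in G4, with a log2 fold change of 0.46 and an adjusted p-value of 0.00481 in the authors' deposited table. Gm5532 was higher in the same comparison. Aldh1l1, an enzyme of folate metabolism that starts 7961 bp from Gm44421, was lower in G4, with a log2 fold change of -0.83 and an adjusted p-value of 0.0130 in the authors' deposited table. Gm44421 itself had a log2 fold change of -0.30 there and was not called.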

How the data were processed

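RNA from the soleus of 12 mice was sequenced, from libraries made with the KAPA kit for stranded mRNA, per the labels' protocols. Per the submitters' processing notes the tools were Bowtie2 2.1.0, RSEM 1.2.15 and edgeR, with mm10 or GRCm38. The notes give no role or order, and the edgeR version, the annotation and the strand setting of counting are not given in the sources used here. Since RSEM shares out reads between like transcripts, genes with near copies are uncertain.

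Per the file headers the authors deposited 4 tables of comparisons with a total, p-value, step-up adjusted p-value, signed fold change and log2 fold change per gene. The totals the authors deposited are a signal, taken here as reads divided by library size factors and summed over 12 libraries. This was inferred from their lowest values, and the header, which says total counts, does not state it. They sum to 298863066 normalised reads, on average 24905255 per library. The signed fold column the authors deposited is a score whose falls are minus the inverse fold. The adjusted p-value column the authors deposited for G4 against G2 and G4 against G3 also holds question marks, for 14458 and 11245 genes, none of them a member. No table held values per library, so edgeR's quasi-likelihood test could not be run, depth per library is unknown and the deposited p-values were used. There were 0 columns of per-sample values left unused.

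Implied standard errors are the size of a log2 divided by the normal quantile of its p-value. G2 against G1 was rebuilt by adding G4 against G3 to G3 against G1 and subtracting G4 against G2. Over 7792 listed genes the rebuilt log2 was within 1.02e-14 of the listed one and log10 p within 2.85e-06. The rebuilt comparison, the interaction and the averaged effects were tested with Wald tests and Benjamini-Hochberg adjustment over 15494 genes with a total of at least 100. Group means were solved from the total and the log2 values, with 3 libraries per group, and the coefficient of variation from a negative binomial variance. The 3 dispersions implied per gene had a median relative range of 0.0168 over 10668 genes. These steps were tested on simulated data. Intervals are at the 95% level.

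Of the members, 58 matched GENCODE M21 on GRCm38 by symbol or RefSeq synonym, 2 had a place in RefSeq only and 3 matched neither. GENCODE M21 lists Erdr1 (as Gm21887) and Gm47283 as protein-coding. Near copies were alignments of at least 200 bases at 95% identity (BLAST 2.17.0). RefSeq held promoters for 39 members.

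The members and the gene lists were chosen with earlier results of these data known. Named members are those called, the 12 highest totals, the 3 largest changes each way in each comparison, those next to the threshold and those in the lists. Members called in the averaged comparison, those with the highest and lowest spread, those with near copies, AW112010, and neighbours other than Setd1b and Acbd6 were named after their values were seen. Nothing says whether libraries of a group came from separate litters, so p-values measure the spread between these mice. Alternatives changed the genes adjusted over, the threshold, a fold limit, trends on GC content, length and total, the minimum total, the scaling and the biotypes. Python 3.11.15, numpy 2.4.6, scipy 1.17.1, pandas 2.3.3 and matplotlib 3.10.9 were used.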

Additional observations from a re-analysis of the deposited data

How the results depend on the processing

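The count of called members was 1 in G3 against G1. It became 2 with adjustment over genes with a total of at least 100, and 2 at an adjusted p under 0.10, the second being 2310065F04Rik in both, at a log2 fold change of -1.88. With trends on GC content, length and total removed the count was again 1, which was 2310065F04Rik, since Gm50194 could not be fitted there. In G4 against G2 the count was 2, and it became 1 with adjustment over every gene with a p-value, where AI480526, at a log2 fold change of -1.02, had an adjusted p of 0.0719. It was also 1 among members with a total of 2000 or more. For G3 and G4 averaged against G1 and G2 the count was 6, and 2 when a fold change of at least 1.5 was also required. These changes follow from the genes tested or the limit set. The median of G4 against G3, 0.00 on the log2 scale, changed sign in 3 alternatives, to -0.02 with the lower minimum total, -0.01 with the higher one and -0.0032 with the median of all genes subtracted. No called gene changed sign, but most settings reuse its log2 fold change and so could not test this. The other medians kept their sign, though not their size. In G4 against G2 the median of -0.14 was -0.09 at totals of 2000 or more. It was -0.07 with antisense and processed transcripts added. The lower minimum total gave -0.15, and subtracting the median of all genes left -0.14. Removing the trends, which held 5.27% of the variance of G4 against G2 and 13.0% of that of G4 against G3, was possible for 58 of 63 members. Leaving out each replicate was not run. No paired analysis was possible because the tables used here give groups and not libraries, and the labels share no replicate numbers. At the errors of these comparisons the median member would need a log2 fold change of 0.41 to reach an unadjusted p of 0.05 in G4 against G2.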

Other observations

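One lincRNA below the minimum total of 1000 was called. 8430426J06Rik, with a total of 402 normalised reads, was lower in G3, with a log2 fold change of -1.75 against G1 in the authors' deposited table (adjusted p-value 0.00371) and an implied standard error of 0.38. In the Wald test of G3 and G4 averaged against G1 and G2 its log2 fold change was -1.08 with an adjusted p of 0.00311. It was named after its values were seen.

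Some listed noncoding genes stand outside the members by biotype. Mir6236 was called in G4 against G3, at a log2 fold change of -0.88 and an adjusted p-value of 0.00170 in the authors' deposited table. Its biotype is miRNA and its total was 33728.5, though the libraries were made for mRNA. Which RNA these reads come from was not tested. Of 7 measured genes in the list of micropeptide and microRNA host genes Mir6236 was the only one called in G4 against G3.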
